A study of Mus musculus with 12 samples.

Results

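Immediate early genes are the first genes that a cell transcribes after a growth factor, cytokine or stress signal, before any protein has to be made. The set described here is 10 such genes, chosen by symbol, and all 10 were found by symbol among the 13554 genes of the deposited table. They are Fos, Jun and Junb, which encode subunits of the AP-1 transcription factor, Egr1, Nr4a1 and Atf3, which encode other transcription factors, Ier2, Btg2, which encodes an inhibitor of proliferation, and Dusp1 and Zfp36, which encode a phosphatase of MAP kinases and a protein that marks mRNAs for decay. In the liver the induction of Fos, Jun and Egr1 is a classical early event after partial hepatectomy, the surgical removal of liver lobes, and precedes the entry of hepatocytes into the cell cycle. Growth factor receptors act through the MAP kinase ERK on SRF and its ternary complex partners, and cAMP acts through CREB on cAMP response elements, to switch such genes on. Dusp1 and Zfp36 then help to end the response, as the first inactivates MAP kinases and the second destabilises AU-rich mRNAs.

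The RNA came from livers of male wild-type mice of the C57Bl/6J strain on postoperative day 3, in 12 libraries, 3 in each of 4 groups. PH80_HC is an arm named HC with resection of 80% of the liver. PH80_G+H received G-CSF and HNF4a with the same resection, PH80 had resection of 80% and PH70 had resection of 70%, with no agent named for either. All 4 groups had surgery, so the levels of an unoperated liver are not analysed here. The sources used here do not say what HC stands for, how old the mice were, at what time of day livers were taken, or how G-CSF and HNF4a were given. Nor do they state that each library is a separate mouse, and p-values measure the spread between libraries, which may be technical.

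Libraries held 9720887 to 44526542 reads, recovered from the normalised values, and the members between 32 and 7385 reads in a library. All 8 hepatocyte markers were in the table, and albumin took 6.74% to 11.7% of the values of a library. By group it took 7.05% to 8.70% in PH80, 9.94% to 11.7% in PH70, 6.74% to 10.95% in PH80_HC and 8.96% to 11.7% in PH80_G+H. Libraries differed in how expression depended on transcript length. The slope per doubling of length was highest in PH80_G+H replicate 2 (0.228 on the log2 scale) and PH70 replicate 3 (0.222), and lowest in PH80_HC replicate 3 (-0.277) and PH80 replicate 1 (-0.187). Values below are normalised reads, that is reads divided by the size factor of the library, with errors as SD over 3 libraries. Tests are two-sided limma tests on log2(value + 1) over 12570 genes with Benjamini-Hochberg adjustment, and a gene is called when its adjusted p is under 0.05. All 10 members passed the filter of at least 10 normalised reads in at least 3 libraries. In bulk tissue, fewer cells of a type and less RNA per cell cannot be told apart.

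RefSeq promoter windows of build GRCm38.p6, from 250 bases before to 50 after the transcription start, were available for 8 members; Ier2 and Egr1 had none. The windows of the 4 members that were called in PH80 against PH70 are shown, with that of Btg2, which was not called but shares an element with Dusp1. Each is given 5′ to 3′ along the gene. Capitals mark matches, on either strand, to TGACGTCA (the cAMP response element), TGACG (its short form, which also lies inside the full element), CACGTG (an E-box), TATAAA, GCGNGGGCG (an EGR site) and the CArG box bound by SRF.
Dusp1, chr17:26508423-26508722, minus strand: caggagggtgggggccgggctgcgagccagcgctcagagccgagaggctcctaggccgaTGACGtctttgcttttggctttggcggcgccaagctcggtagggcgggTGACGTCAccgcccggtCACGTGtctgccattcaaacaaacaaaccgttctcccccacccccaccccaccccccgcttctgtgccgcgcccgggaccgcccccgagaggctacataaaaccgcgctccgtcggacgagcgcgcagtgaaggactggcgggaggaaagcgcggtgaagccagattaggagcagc
Nr4a1, chr15:101266596-101266895, plus strand: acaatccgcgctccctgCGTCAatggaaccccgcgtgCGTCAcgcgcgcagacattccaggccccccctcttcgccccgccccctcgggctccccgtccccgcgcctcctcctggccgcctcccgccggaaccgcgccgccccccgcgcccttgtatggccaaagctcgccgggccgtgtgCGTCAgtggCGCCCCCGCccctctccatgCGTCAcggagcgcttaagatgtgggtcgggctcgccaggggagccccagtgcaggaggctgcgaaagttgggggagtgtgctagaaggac
Zfp36, chr7:28379179-28379478, minus strand: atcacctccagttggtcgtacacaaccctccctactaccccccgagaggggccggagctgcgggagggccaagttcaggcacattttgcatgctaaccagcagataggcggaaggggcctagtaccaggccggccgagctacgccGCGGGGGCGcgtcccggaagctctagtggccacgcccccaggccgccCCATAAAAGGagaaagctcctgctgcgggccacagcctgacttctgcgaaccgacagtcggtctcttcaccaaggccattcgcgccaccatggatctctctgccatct
Junb, chr8:84978699-84978998, minus strand: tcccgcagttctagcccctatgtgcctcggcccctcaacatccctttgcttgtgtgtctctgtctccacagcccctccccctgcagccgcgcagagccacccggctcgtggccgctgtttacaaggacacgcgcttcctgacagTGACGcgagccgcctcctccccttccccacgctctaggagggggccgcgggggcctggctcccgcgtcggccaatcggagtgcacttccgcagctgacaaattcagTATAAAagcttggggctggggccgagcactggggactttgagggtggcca
Btg2, chr1:134079106-134079405, minus strand: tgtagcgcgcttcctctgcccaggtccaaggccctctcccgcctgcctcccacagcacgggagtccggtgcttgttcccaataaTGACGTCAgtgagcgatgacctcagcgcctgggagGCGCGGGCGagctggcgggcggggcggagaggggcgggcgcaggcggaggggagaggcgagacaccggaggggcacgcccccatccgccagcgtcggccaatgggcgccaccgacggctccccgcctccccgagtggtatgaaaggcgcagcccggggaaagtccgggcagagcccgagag

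The full element TGACGTCA was in 2 of the 8 windows, those of Dusp1 and Btg2, against 1.79% of 32851 mouse promoter windows and 2.79% of the 12934 windows of genes tested here. The short form TGACG was in 6 of 8 (Fos, Junb, Dusp1, Nr4a1, Atf3 and Btg2), against 20.8% of all windows and 29.4% of those of tested genes, and Nr4a1 held 4 copies, all on the opposite strand. A CArG box was in 1 of 8, the window of Zfp36, against 1.63% and 1.31%. GCGNGGGCG was in 3 of 8 (Nr4a1, Btg2 and Zfp36), against 5.55% and 10.2%. TATAAA was in 2 (Fos and Junb), against 13.6% and 7.62%, and CACGTG in 1 (Dusp1), against 7.15% and 9.61%. The TATAAA match began at position -33 from the start site of the window in Fos, but at position 0 in Junb. GGGCGG, which is not capitalised and which overlaps the EGR site in Nr4a1, was in 7 of 8, against 35.7% of all windows and 60.4% of those of tested genes. The AP-1 site TGANTCA and the NR4A site AAAGGTCA had no match in these 8 windows, and were in 7.81% and 1.51% of all windows and in 5.54% and 1.15% of those of tested genes. A match is a string of letters and was not tested for binding. Windows of called and uncalled members shared letters, since Dusp1 and Btg2 both hold TGACGTCA.

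**Figure D1:**
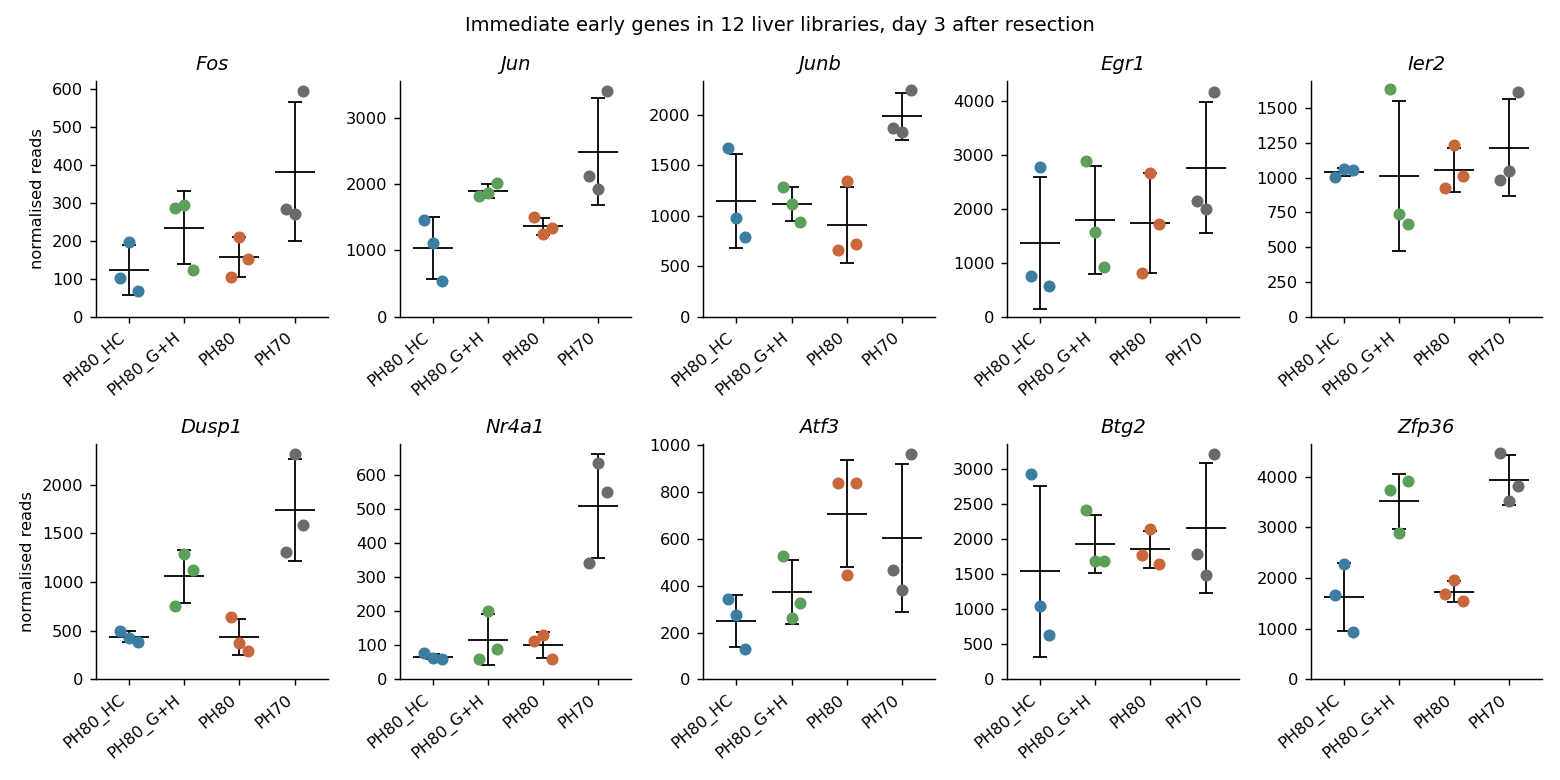
Normalised reads (y axis, linear, from 0) of the 10 immediate early genes in each of the 12 libraries, by group on the x axis. Points are libraries, horizontal bars are means and error bars are SD (n = 3). All PH80 libraries sit below all PH70 libraries for Fos, Jun, Junb, Dusp1, Nr4a1 and Zfp36, and the PH80_G+H libraries of Zfp36 lie between 2884 and 3911.

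The larger resection was first set against the smaller one. Of the 10 members, 4 fell in PH80 relative to PH70 and none rose, while 2.73% of all genes tested were called lower and 1.09% higher. Those shares depended on the scaling: 137 genes were called higher and 343 lower as deposited, but 127 higher and 110 lower with every library at the same total, where 2 members, Dusp1 and Nr4a1, were called. The members that fell were Nr4a1 (5.14-fold), Dusp1 (4.07-fold), Junb (2.3-fold) and Zfp36 (2.27-fold). The median log2 difference of the 10 was -1.01, against 0.01 for all genes tested, and 9 of 10 lay below 0. That median was -0.73 without PH70 replicate 3, with 7 of 10 below 0, and -1.21 without PH80 replicate 2. With every library at the same total it was -0.89. For 6 members each PH80 library was below each PH70 library, and 14.2% of all genes showed that separation. The members and the comparison were chosen with results of these data known, so these counts are descriptions.

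Dusp1, which dephosphorylates ERK, JNK and p38 kinases, lies on chromosome 17 from 26505590 to 26562128 on the minus strand, as GENCODE M21 on GRCm38 has it. Its normalised reads were 644, 373 and 296 in the PH80 libraries, against 1304, 2318 and 1589.9 in the PH70 libraries. The highest PH80 library reached less than the lowest PH70 library, and the groups did not overlap. The log2 difference was -2.02 (SE 0.29, 95% interval -2.66 to -1.39, adjusted p = 0.00446 in limma). Dusp1 kept its call under each of the 24 alternative settings tried, at log2 differences from -2.34 to -1.78.

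Nr4a1 encodes NUR77, an orphan nuclear receptor that in liver is known to raise gluconeogenic genes. It lies on chromosome 15 from 101254269 to 101274795 on the plus strand, with 8 exons in its longest transcript. It had 112.5, 130.1 and 58.3 normalised reads in PH80 libraries, against 340.1, 634 and 551 in PH70 libraries. Every PH80 library was under every PH70 library, with the narrowest gap between PH80 replicate 2 and PH70 replicate 1. Its log2 difference was -2.36 (SE 0.41, interval -3.24 to -1.48, adjusted p = 0.00907), and the call was lost without PH70 replicate 2 (adjusted p = 0.0628). Behind the PH80 values are 56 to 174 reads a library.

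Zfp36, the gene of tristetraprolin, a zinc finger protein that binds AU-rich elements of cytokine mRNAs, lies on chromosome 7 from 28376784 to 28380253 on the minus strand. It was at 1683, 1951 and 1552 normalised reads in PH80 libraries and at 4469.5, 3521 and 3804 in PH70 libraries. The values within each group were close together, and the groups were well apart. The log2 difference was -1.18 (SE 0.27, interval -1.76 to -0.61, adjusted p = 0.0284). Junb, on chromosome 8 from 84974484 to 84978718 on the minus strand, had 657, 1341 and 722 normalised reads in PH80 libraries, against 1875, 1829.8 and 2250.0 in PH70 libraries. PH80 replicate 2 stood closest to PH70 but did not reach it. For Junb the log2 difference was -1.20 (SE 0.29, interval -1.83 to -0.57, adjusted p = 0.0395).

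The calls of Zfp36 and Junb were the less firm ones. That of Zfp36 was lost in 8 of 24 alternatives, among them each run without 1 PH80 or PH70 library, and with every library at the same total (adjusted p = 0.0957). That of Junb was lost in 12 of 24, among them the runs without any 1 PH70 library, without PH80 replicate 1 or 3, and with edgeR on recovered reads (adjusted p = 0.0611). Over all 24 alternatives their log2 differences ranged from -1.27 to -1.06 for Zfp36 and from -1.52 to -1.01 for Junb. Junb overlaps Prdx2 on the other strand and Dusp1 overlaps Ergic1, and the sources used here do not state whether reads were counted by strand. Prdx2 differed by 0.28 (adjusted p = 0.626) and Ergic1 by -0.17 (adjusted p = 0.601) on the log2 scale in the same comparison.

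**Figure D2:**
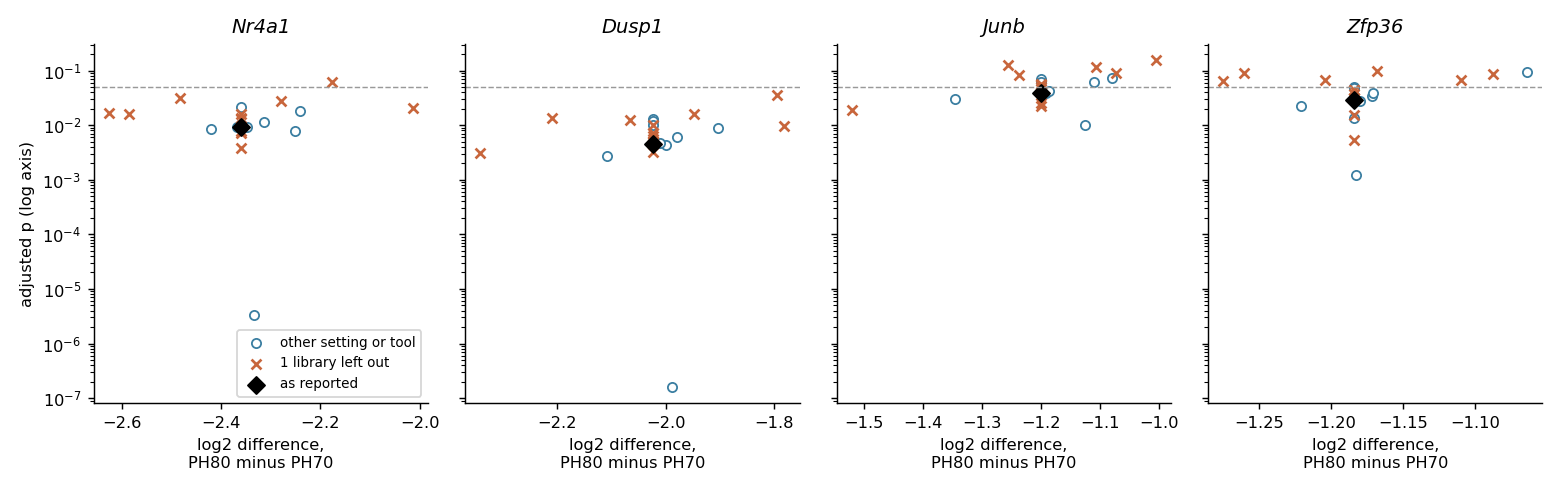
Log2 difference (x axis, PH80 minus PH70) and adjusted p (y axis, log scale, dashed line at 0.05) of the 4 called members under the reported setting, 12 other settings or tools, and 12 runs with 1 library left out. All Dusp1 points and all but 1 Nr4a1 point lie under the line, while Junb and Zfp36 lie on both sides of it.

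The partners of Junb in AP-1 had lower means in PH80 but were not called. Fos, whose protein pairs with JUN proteins on AP-1 sites, lies on chromosome 12 from 85473890 to 85477273 on the plus strand. It had 105.5, 211 and 153 normalised reads in PH80 libraries, against 284, 270.5 and 595 in PH70 libraries. The groups did not overlap, and the highest PH70 library, replicate 3, was 2.20 times the lowest. The log2 difference of Fos was -1.24 (SE 0.44, adjusted p = 0.13, and 0.0494 with DESeq2). Jun, a single-exon gene on chromosome 4 from 95049034 to 95052222 on the minus strand, was at 1508, 1244 and 1337 in PH80 libraries, against 2130.3, 1930.3 and 3414 in PH70 libraries, again without overlap. Its log2 difference was -0.83 (SE 0.31, adjusted p = 0.148).

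The remaining members were not called and their groups overlapped. Egr1, a zinc finger factor that binds GC-rich sites, lies on chromosome 18 and had 810.1, 2668 and 1718 normalised reads in PH80 libraries, against 2138, 1989 and 4169.9 in PH70 libraries (log2 difference -0.75, SE 0.58, adjusted p = 0.472). Its spread within groups, an SD of 0.91 on the log2 scale, was the widest of the 10. Ier2, a short nuclear protein (chromosome 8, 84661331 to 84662852), was at 928, 1231 and 1008 in PH80 libraries, against 985, 1047 and 1614 in PH70 libraries. Its log2 difference was -0.18 (interval -0.81 to 0.46). Btg2, a target of p53 (chromosome 1, 134075170 to 134079120), was at 1768, 2146 and 1646 in PH80 libraries, against 1786.0, 1484 and 3215.5 in PH70 libraries, and PH70 replicate 3 alone stood above PH80. Its log2 difference was -0.15 (interval -1.08 to 0.78). Atf3, a stress-induced relative of the AP-1 proteins (chromosome 1, 191170296 to 191218039), had the only mean difference above 0, at 0.29 (interval -0.61 to 1.18). It had 841, 444.1 and 838.5 normalised reads in PH80 libraries, against 467, 380.2 and 965.5 in PH70 libraries.

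**Figure D3:**
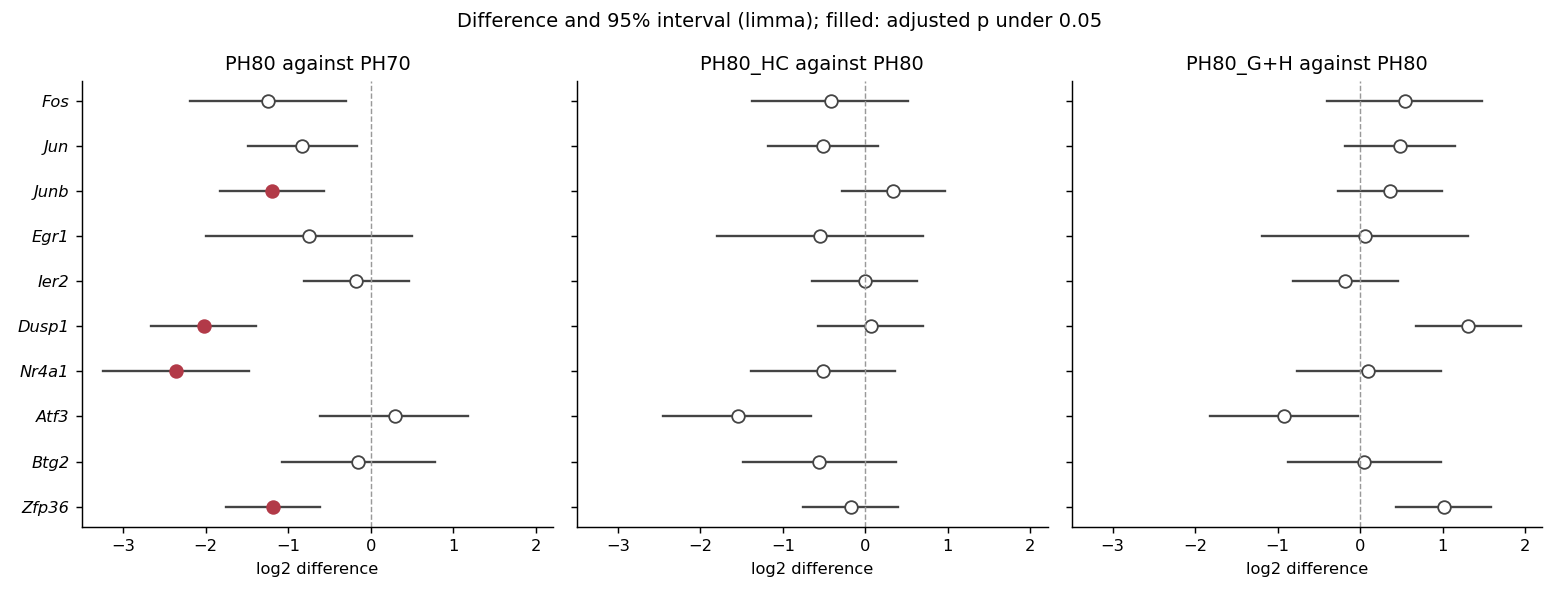
Log2 difference (x axis) of each of the 10 genes (y axis) in 3 comparisons, with 95% intervals from limma. Filled points had an adjusted p under 0.05, which in PH80 against PH70 were Junb, Dusp1, Nr4a1 and Zfp36, and no point is filled in the other panels.

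The arm named HC was next set against PH80, which had the same extent of resection. No member was called in limma (1 before adjustment at 0.05, and 0 in edgeR and 1 in DESeq2), where 0.891% of all genes were called. Before adjustment 14.3% of all genes passed at 0.05, and DESeq2 called 4.04%. The members had a median log2 difference of -0.47, against 0.01 for all genes, and 8 of 10 were below 0. That median rested on single libraries, being -0.07 without PH80_HC replicate 3 and -0.17 without PH80 replicate 2. The gene behind the single count is Atf3, which had 343, 275 and 129.7 normalised reads in PH80_HC libraries, against 841, 444.1 and 838.5 in PH80 libraries. No PH80_HC library reached the lowest PH80 library, a separation that 7.38% of all genes had. Its log2 difference was -1.55 (SE 0.42, interval -2.45 to -0.66, adjusted p = 0.101, and 0.0137 with DESeq2). Dusp1 was at 499.7, 424 and 387 in PH80_HC libraries and at 644, 373 and 296 in PH80 libraries, and its difference had an interval of -0.57 to 0.70. Nr4a1 was at 76.1, 62.6 and 61.0 in PH80_HC libraries, against 112.5, 130.1 and 58.3 in PH80 libraries (interval -1.39 to 0.36).

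PH80_HC replicate 3 stood apart for most members. It was the lowest of the 12 libraries for 6 of 10 members and among the lowest 3 for 9 of 10, the exception being Ier2. Without it, the difference of Zfp36 from PH80 was 0.17 in place of -0.18. Its length slope was the lowest of the 12, and after each library's trend with transcript length was removed the median of the members in PH80_HC against PH80 was -0.48. With every library at the same total the median of all genes moved to -0.31 and that of the members to -0.79. Calls over all genes were then 17 higher and 55 lower, against 82 higher and 30 lower as deposited.

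G-CSF with HNF4a was compared with PH80 in the same way. No member was called in limma (3 before adjustment at 0.05, and 0 in edgeR and 2 in DESeq2), and 0.119% of all genes were. Before adjustment 10.5% of all genes passed at 0.05, and DESeq2 called 1.61%. Here 8 of 10 members lay above 0, with a median of 0.23, against -2.01e-05 for all genes. The median was 0.44 without PH80 replicate 2 and 0.45 without PH80_G+H replicate 3, and with every library at the same total it was 0.13, with 4 of 10 below 0. Zfp36 had 3729, 2884 and 3911 normalised reads in PH80_G+H libraries, against 1683, 1951 and 1552 in PH80 libraries. Each PH80_G+H library was above each PH80 library, and the log2 difference was 1.01 (SE 0.27, interval 0.44 to 1.59, adjusted p = 0.19 in limma, and 0.0243 with DESeq2). Dusp1 had 758, 1288 and 1127 in PH80_G+H libraries, against 644, 373 and 296 in PH80 libraries, with a log2 difference of 1.31 (SE 0.29, interval 0.68 to 1.95, adjusted p = 0.128, and 0.00907 with DESeq2). Its lowest PH80_G+H library lay close above the highest PH80 library.

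Jun was the other member whose PH80_G+H libraries all lay above PH80, at 1818, 1872 and 2022 against 1508, 1244 and 1337 (log2 difference 0.48, adjusted p = 0.608). Such separation upwards was found in 8.82% of all genes. Nr4a1 did not share the pattern of Dusp1, with 58.9, 201 and 89.1 normalised reads in PH80_G+H libraries, against 112.5, 130.1 and 58.3 in PH80 libraries (log2 difference 0.10, interval -0.77 to 0.98). Atf3 was at 528, 264 and 328 in PH80_G+H libraries, against 841, 444.1 and 838.5 in PH80 libraries, with a log2 difference of -0.92 (adjusted p = 0.457). Fos, at 287, 294 and 124, against 105.5, 211 and 153, overlapped between the groups.

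PH80_HC and PH80_G+H were also set against PH70, and these values share the PH70 libraries with the first comparison. In PH80_HC all 10 members had lower means than in PH70, and Nr4a1 and Dusp1 fell, where 0.119% of all genes were called lower. Nr4a1 was 7.33-fold lower (log2 difference -2.87, SE 0.41, adjusted p = 0.0207) and Dusp1 3.88-fold lower (-1.96, SE 0.29, adjusted p = 0.026). Both calls were lost without PH70 replicate 2 or 3 and without PH80_HC replicate 1 or 3, that of Dusp1 also without PH80_G+H replicate 3 (adjusted p of 0.0538 to 0.164 over these runs), and that of Dusp1 with no intensity trend in limma (adjusted p = 0.0567). For 7 members, the exceptions being Egr1, Ier2 and Btg2, each PH80_HC library was below each PH70 library, against 9.07% of all genes.

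In PH80_G+H against PH70 no member was called in limma (3 before adjustment at 0.05, and 0 in edgeR and 1 in DESeq2), and 0.00796% of all genes were. Before adjustment 5.97% of all genes passed at 0.05, and DESeq2 called 0.525%. The single call by DESeq2 was that of Nr4a1 (log2 difference -2.26 and adjusted p = 0.12 in limma, adjusted p = 0.000396 by DESeq2), and all its PH80_G+H libraries were below its PH70 libraries. Junb and Dusp1 were likewise lower in each PH80_G+H library than in each PH70 library, with log2 differences of -0.84 and -0.71, a separation found in 7.57% of all genes. Zfp36 differed by -0.17 (interval -0.75 to 0.41), with 3729, 2884 and 3911 normalised reads in PH80_G+H libraries, against 4469.5, 3521 and 3804 in PH70 libraries.

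PH80_HC and PH80_G+H were compared with each other as well. In PH80_HC against PH80_G+H no member was called in limma (4 before adjustment at 0.05, and 0 in edgeR and 2 in DESeq2), with 0.255% of all genes called. Before adjustment 13.6% of all genes passed at 0.05, and DESeq2 called 2.41%. Zfp36 was at 1660.1, 2268 and 931 normalised reads in PH80_HC libraries, against 3729, 2884 and 3911 in PH80_G+H libraries, without overlap (log2 difference -1.19, SE 0.27, adjusted p = 0.0889, and 0.00774 with DESeq2). Dusp1 separated in the same way (log2 difference -1.25, adjusted p = 0.118, and 0.00603 with DESeq2), as did Jun (interval -1.66 to -0.34, adjusted p = 0.206). Separation downwards was found in 8.4% of all genes. The test over the 4 groups at once, which needs no choice of a pair, called Dusp1 (adjusted p = 0.0108), Nr4a1 (0.0141) and Zfp36 (0.0264) in limma, where 1.85% of all genes were called. edgeR called 3 members and 1.71% of all genes, and DESeq2 7 members and 9.75% of all genes.

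The order of the groups by mean log2 value was the same for 6 members. For Fos, Jun, Egr1, Nr4a1, Btg2 and Zfp36 the mean was lowest in PH80_HC, then PH80, then PH80_G+H, and highest in PH70. Neighbours in that order mostly did not differ beyond their spread. For Zfp36 PH80_HC and PH80 overlapped, as did PH80_G+H and PH70, while a gap without overlap lay between PH80_G+H and each of PH80_HC and PH80. For Nr4a1 the 3 groups with resection of 80% overlapped one another, and each lay below PH70. For Dusp1 PH80_HC and PH80 overlapped, PH80_G+H lay above both, and PH70 lay above PH80_G+H, by 1304 as the lowest PH70 library against 1288 as the highest PH80_G+H library. Atf3 alone had its highest mean in PH80, with 249 ± 109 normalised reads in PH80_HC, 373 ± 138 in PH80_G+H, 708 ± 228 in PH80 and 604 ± 316 in PH70. Ier2 had nearly level means, from 1012 in PH80_G+H to 1216 in PH70.

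**Figure D4:**
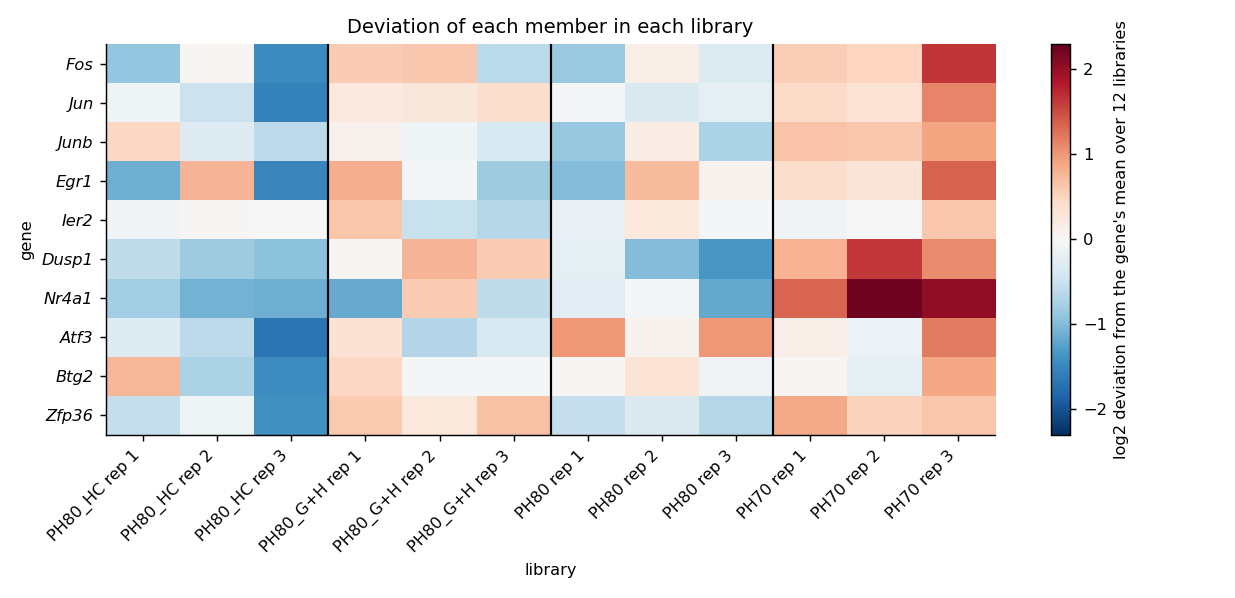
Deviation of each gene (y axis) in each library (x axis) from that gene's mean over the 12 libraries, on the log2 scale, with red above and blue below the mean and black lines between groups. PH70 replicate 3 is above the mean for each of the 10 genes, and PH80_HC replicate 3 is the lowest library for 6 of them.

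Individual libraries gave the set much of its spread. PH70 replicate 3 was among the highest 3 libraries for all 10 members and the highest for 6, with a median deviation of 1.11 from the gene means on the log2 scale, against 0.51 and 0.40 for PH70 replicates 1 and 2. PH80_HC replicate 3 had a median deviation of -1.41, against -0.42 and -0.39 in the other PH80_HC libraries. PH70 replicate 3 had the next to highest slope on transcript length and PH80_HC replicate 3 the lowest, as given above. With that trend removed, 4 members were called in PH80 against PH70 as before, at log2 differences of -2.42 for Nr4a1, -2.11 for Dusp1, -1.35 for Junb and -1.22 for Zfp36. Without PH70 replicate 3, 2 members were called in that comparison, and without PH80_HC replicate 3, 5 were, the added one being Jun. The loss was not particular to PH70 replicate 3. There was 1 call without PH70 replicate 2, and there were 3 without PH80 replicate 2. Leaving out PH70 replicate 1, PH80 replicate 1 or PH80 replicate 3 gave 2 calls each.

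Within a group the members peaked in more than 1 library, though unevenly. Replicate 1 was the highest PH80_HC library for 6 of 10 members and replicate 1 the highest PH80_G+H library for 5, replicate 2 was the highest PH80 library for 7, and replicate 3 the highest PH70 library for 7. Among PH80_G+H libraries, replicate 1 was the highest for Egr1 (2896, against 1574 and 921 in replicates 2 and 3) and for Ier2 (1635, against 736 and 664). Replicate 2 was the highest for Dusp1 and Nr4a1. Among PH80_HC libraries, Egr1 was highest in replicate 2 (2773.5, against 745 and 567 in replicates 1 and 3), while Btg2 was highest in replicate 1 (2933, against 1048.5 and 638 in replicates 2 and 3). The ratio of the highest to the lowest library in PH80_HC was 4.89 for Egr1 and 4.596 for Btg2 but 1.05 for Ier2 and 1.25 for Nr4a1.

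Levels were compared between genes as normalised reads per kilobase of the longest transcript. On that scale PH80 had 694 ± 103 for Ier2, 676 ± 95.04 for Btg2, 620 ± 73.0 for Zfp36 and 501 ± 209 for Junb, and PH70 had 799 ± 228 for Ier2, 788 ± 337 for Btg2, 1409 ± 175 for Zfp36 and 1097 ± 127.5 for Junb. Zfp36 thus had the highest level per kilobase of the 10 in PH70, and Ier2 the highest in PH80. Dusp1 was at 189 ± 79.1 in PH80 and 751 ± 226 in PH70. Fos and Nr4a1 had the lowest levels per kilobase, at 74.2 ± 25.0 and 39.3 ± 14.65 in PH80 and at 182 ± 87.2 and 199 ± 59.4 in PH70.

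Other genes of the response were taken from lists, which were written with earlier results of these data known. Of 38 other immediate early genes 31 were tested, and in PH80 against PH70 1 rose and 1 fell, where 3.82% of all genes were called in either direction. Klf10, a TGF-beta inducible repressor, fell to 202 ± 104 in PH80, against 709 ± 179 in PH70 (a log2 difference of -1.90, SE 0.34, adjusted p = 0.0111). Ier5, a relative of Ier2, rose to 618 ± 180 in PH80, against 243 ± 83.8 in PH70 (a log2 difference of 1.35, SE 0.29, adjusted p = 0.024). The median of the 31 was -0.06, and 18 lay below 0.

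Family relatives of the members were also mixed in direction. Of 19 relatives 14 were tested, with Ier5 higher and Zfp36l2 lower in PH80 than in PH70. Zfp36l2, which encodes another mRNA decay factor of the Zfp36 family, was at 218 ± 55.9 in PH80, against 560.5 ± 115 in PH70 (a log2 difference of -1.37, SE 0.32, adjusted p = 0.0328). No other relative was called in that comparison. Batf3, a partner of JUN proteins in dendritic cells, was called in the test over 4 groups (adjusted p = 0.0343), at 138 ± 89.5 in PH80_HC, 25.7 ± 4.91 in PH80_G+H, 68.4 ± 19.8 in PH80 and 24.8 ± 12.3 in PH70. No member of these 2 lists was called in limma for PH80_HC or PH80_G+H against PH80. For the 31 other immediate early genes 7 and 2 had an unadjusted p under 0.05 in these comparisons. For the 14 relatives 3 and 5 had, and over all genes 14.3% and 10.5%. Both lists had 0 calls by edgeR and 0 by DESeq2 in each comparison, where DESeq2 called 4.04% and 1.61% of all genes.

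Genes that act before the members mostly had lower means, without a call. Of 21 kinases and factors upstream 19 were tested, and 16 lay below 0 in PH80 against PH70, with a median of -0.28. None of the 19 was called in limma (6 before adjustment at 0.05, and 0 in edgeR and 2 in DESeq2). Over all genes tested 48.6% lay below 0, 21.4% passed before adjustment and DESeq2 called 7.57%. None of the 15 tested MAP kinase phosphatases and ERK feedback genes other than Dusp1 was called (1 before adjustment at 0.05, and 0 in edgeR and 0 in DESeq2), and their median was 0.01. Of 13 genes of the glucocorticoid receptor and its targets 1 was called in limma, where 3.82% of all genes were. The 13 had a median of 0.01, with 6 below 0. The called gene was Klf9, a Krüppel-like factor, which fell to 280.2 ± 134 in PH80, against 1067 ± 299 in PH70 (a log2 difference of -2.03, SE 0.36, adjusted p = 0.0108). None of the 10 heat shock genes was called (2 before adjustment at 0.05, and 0 in edgeR and 0 in DESeq2), and their median was 0.50. None of the 15 p53 targets was either (4, 0 and 0), with a median of -0.11.

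Among 14 tested genes of the integrated stress response, in which Atf3 also acts, 2 fell and 1 rose in PH80 against PH70. Of all genes tested 2.73% were called lower and 1.09% higher. The 14 had a median log2 difference of 0.05, with 7 below 0. Gdf15 (log2 difference -1.83, adjusted p = 0.00317) and Trib3 (-1.91, adjusted p = 0.00648) fell, and Psat1, an enzyme of serine synthesis, rose (2.03, adjusted p = 0.0158). Gdf15 was at 533 ± 159 in PH80_HC, 1263 ± 45.8 in PH80_G+H, 512 ± 118 in PH80 and 1829 ± 425 in PH70.

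**Figure D5:**
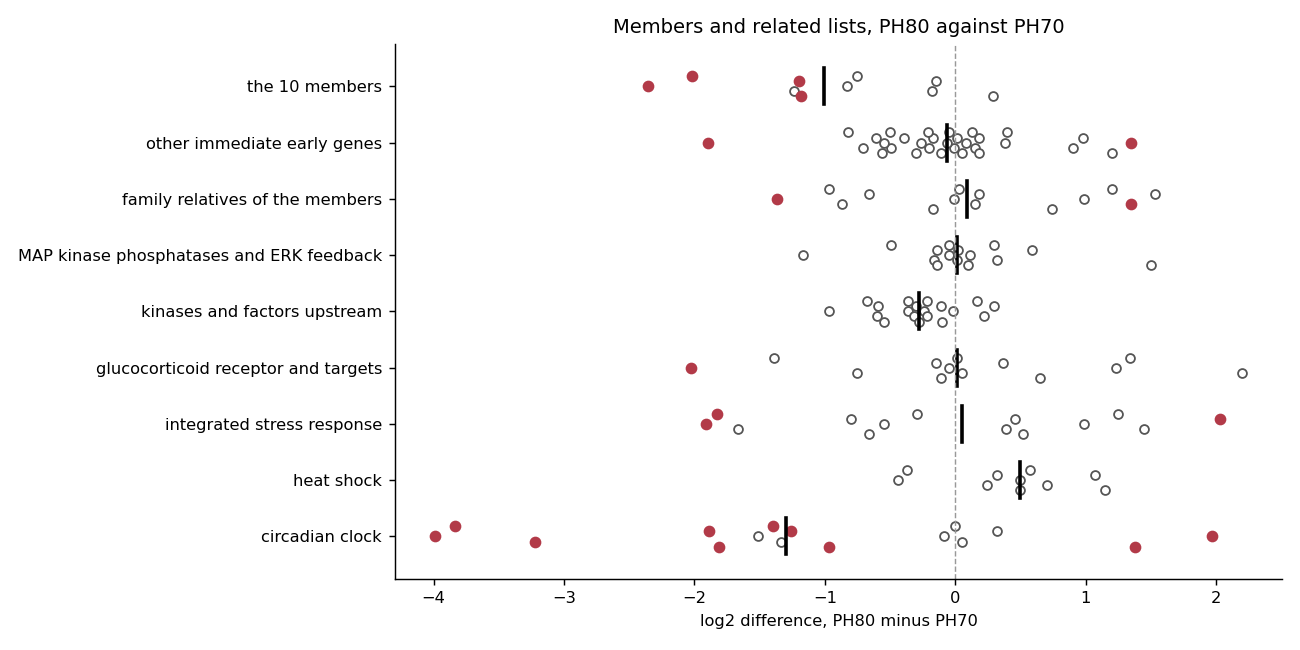
Log2 difference (x axis, PH80 minus PH70) of every tested gene of the 10 members and of 8 related lists (y axis). Filled points had an adjusted p under 0.05 in limma and black bars are list medians, which are -1.01 for the members, -0.06 for other immediate early genes and -1.30 for the circadian clock.

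The genes most like the members over the 12 libraries were found by Pearson's r between log2 values, as a description with no test. Predicted genes, with Gm or Rik names, were left out of the ranking. With the mean of the 10 scaled members, r was 0.877 for Prss8, a membrane-anchored serine protease, 0.875 for Epha2, an ephrin receptor, 0.843 for Tns3, 0.842 for Vps39 and 0.839 for Mtmr3. With Dusp1 alone, r was 0.913 for G6pc, which releases glucose from the liver cell, 0.912 for Bhlhe40, a repressor in the clock, 0.909 for Gdf15, 0.883 for Cyp2f2 and 0.881 for Pms1. The points share the 12 libraries and their normalisation.

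Clock genes changed in the same comparison as the members. Of 16 clock genes tested 8 fell and 2 rose in PH80 against PH70, where 2.73% of all genes were called lower and 1.09% higher. Among those that fell were Dbp (log2 difference -3.84, adjusted p = 0.000695) and Nr1d1 (-3.22, adjusted p = 0.00131). The summed values of the 16 clock genes were 5888 to 6976 in PH80 and 14686 to 17508 in PH70. Against PH80, 2 clock genes rose and 1 fell in PH80_HC, and 2 rose in PH80_G+H, with Dbp higher in both (log2 differences 2.90 and 2.64, adjusted p = 0.0118 and 0.0243). In these comparisons 0.891% and 0.119% of all genes were called in either direction.

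Markers of white cells gave no call in limma in PH80 against PH70. Over all genes 21.4% passed before adjustment at 0.05 in that comparison, and DESeq2 called 7.57%. Of 12 neutrophil markers tested 4 passed before adjustment, with 0 calls in edgeR and 4 in DESeq2. All 12 lay above 0, with a median of 1.03. Nearly all of the summed value of the 14 in the table was Lcn2, which hepatocytes also make and which is on the glucocorticoid list too, at 12048 to 84830.1 in PH80 and 2657.5 to 10110.4 in PH70. The other 13 summed to 331 to 6188 in PH80 (median 650) and 163 to 640 in PH70 (median 316). The upper end in PH80 was thus set by 1 library. Mpo was at 0 in each PH70 library and at 0 to 3.74 in PH80, and did not pass the filter on low values. Of 14 macrophage and Kupffer cell markers 4 passed before adjustment, with 0 calls in edgeR and 1 in DESeq2, a median of 0.40 and summed values of 18643 to 41922 in PH80 and 15696 to 21824 in PH70. Of 12 lymphocyte markers 1 passed before adjustment, with 0 calls in edgeR and 0 in DESeq2, a median of 0.17 and 6 below 0. The 8 hepatocyte markers all lay below 0, with a median of -0.25 and no call in limma (0 before adjustment, 0 in edgeR and 1 in DESeq2).

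No marker of these cell types was called in limma for PH80_HC or PH80_G+H against PH80 either. Over all genes 14.3% and 10.5% passed before adjustment in these comparisons. edgeR called 0.923% and 0.0875% of all genes, and DESeq2 4.04% and 1.61%. In PH80_HC the median of 12 lymphocyte markers was 1.03 (5 before adjustment at 0.05, 0 in edgeR and 2 in DESeq2), with summed values of 250.2 to 759 in PH80_HC and 139.6 to 382.5 in PH80. That of 14 macrophage markers was 0.51 (5, 0 and 1), with sums of 29916 to 51034 in PH80_HC and 18643 to 41922 in PH80. That of 12 stellate cell markers was -0.72 (7, 1 and 1), with sums of 6384 to 8548 in PH80_HC and 10339 to 25378 in PH80. Only 3 erythroid markers were in the table, with a median of 2.41 (3, 0 and 1). Neutrophil markers had a median of -0.02 (1, 0 and 0) in PH80_HC and of 0.26 (0, 0 and 0) in PH80_G+H. Without Lcn2 they summed to 668.5 to 2418 in PH80_HC (median 886) and 415 to 2523 in PH80_G+H (median 1608). In PH80 that sum was 331 to 6188 (median 650). The part of the clock genes and of these cell types in the values of the members was not tested.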

How the data were processed

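RNA of mouse liver was measured in 12 libraries by poly(A)-selected stranded RNA-seq, per the labels' protocols. The deposited table holds 1 normalised signal per gene and library, whose steps match reads divided by DESeq2 size factors; DESeq2 and build GRCm38 are named, with no role, per the submitters' processing notes, and the aligner and the counter with its strand setting are not. All values were whole multiples of 1 read within 0.01 (100% in each library), so whole reads were recovered. Depth was 9720887 to 44526542 reads, and counting error is largest for Nr4a1, with as few as 32 reads. Fits used limma 3.58.1 in R 4.3.3 with an intensity trend, on log2(value + 1) of the 12570 of 13554 genes with at least 10 in at least 3 libraries, all 12 libraries and 6 comparisons; fold changes on this scale understate those of low genes. The 24 alternatives include edgeR 4.0.16 and DESeq2 1.42.0 on recovered reads and each library left out. Scripts were tested on simulated data. Members named are all 10; other genes are those of lists past the threshold, at most 6 a list. The members and lists were chosen with earlier results of these data known.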

Additional observations from a re-analysis of the deposited data

How the results depend on the processing

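In PH80 against PH70 the number of members called, 4 as reported, was 2 without the intensity trend, 2 with every library at the same total, and 1 to 5 with 1 library left out. In PH80_HC against PH70 it was 2 as reported, 1 without the intensity trend, 5 with DESeq2 (and 2.01% of all genes) and 0 to 3 with 1 library left out. Where no member was called, DESeq2 called 1 in PH80_HC against PH80 (and 4.04% of all genes), 2 in PH80_G+H against PH80 (1.61%), 1 in PH80_G+H against PH70 (0.525%) and 2 in PH80_HC against PH80_G+H (2.41%), and the last 2 comparisons had 0 to 1 with 1 library left out. Over the 4 groups DESeq2 called 7 (and 9.75% of all genes), against 3 as reported and 1 to 4 with 1 library left out. The cause of these differences was not tested. Replicate numbers did not pair the libraries (correlations of same-numbered libraries from -0.367 to 0.373, and 12 of 36 best with their own number). With the replicate block 3 members were called in PH80 against PH70, Junb being lost (adjusted p = 0.0621), and 2 over the 4 groups.

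Of 1440 alternative values of single members 31 changed sign, in 13 of 60 results. None of these 13 results was called, and none had a log2 difference over 0.19 in size as reported. The values that changed sign reached -0.41, for Egr1 in PH80_G+H against PH80 without PH80 replicate 1. With every library at the same total the median of all genes was 0.13 in PH80 against PH70 and -0.31 in PH80_HC against PH80. It was -0.205 in PH80_HC against PH70 and -0.21 in PH80_HC against PH80_G+H. In that setting the log2 difference of Dusp1 was -0.26 in PH80_HC against PH80. Egr1 was at -0.038 and Btg2 at -0.051 in PH80_G+H against PH80. Ier2 in PH80_HC against PH80_G+H was at -0.069, and at -0.011 with the length trend removed. Dusp1 in PH80_HC against PH80 was at -0.018 with edgeR and -0.0022 with DESeq2, and Junb in PH80_HC against PH80_G+H at 0.026 and 0.042.
With 1 library left out the results that changed sign spanned the following log2 differences, in PH80 against PH70 -0.31 to 0.045 for Ier2 and -0.38 to 0.18 for Btg2, in PH80_HC against PH80 -0.10 to 0.10 for Ier2, -0.17 to 0.39 for Dusp1 and -0.47 to 0.17 for Zfp36, in PH80_G+H against PH80 -0.41 to 0.46 for Egr1, -0.58 to 0.065 for Ier2, -0.39 to 0.49 for Nr4a1 and -0.13 to 0.16 for Btg2. They also spanned, in PH80_HC against PH70 -0.32 to 0.033 for Ier2, in PH80_G+H against PH70 -0.33 to 0.22 for Btg2, in PH80_HC against PH80_G+H -0.33 to 0.21 for Junb and -0.078 to 0.57 for Ier2.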
